A study of Homo sapiens with 5 samples.

Results

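The collagen and laminin genes of human brain organoids were described here before and after transplantation into the mouse brain. Members were taken by symbol alone, as every gene named COL or LAM in the pattern of the alpha chains of collagen and of the alpha, beta and gamma chains of laminin, where both human annotations of the series list it. This gave 56 genes of the 32732 listed in both annotations, 44 of them collagens and 12 of them laminins. Organoids were made from H9: AAVS-ChR2-EYFP, a derivative of the established embryonic stem cell line H9 whose cells carry the light-gated channel ChR2 and the fluorescent protein EYFP in every group, and which the labels list as WT. D0 was organoids kept in vitro until day 42. HIP_2MPT and HIP_4MPT were grafts in the hippocampus (HIP) of SCID mice (SCID-Beige in the paper's Results), taken 2 and 4 months post transplantation (MPT). PFC_2MPT and PFC_4MPT were grafts in the prefrontal cortex (PFC), taken at the same stages. Each of these 5 groups was 1 droplet library, for which cells of several organoids or of several grafted mice were pooled, and EYFP-positive tissue was dissected from the host brain.

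Collagens are proteins of 3 chains wound into a helix, and they differ in the assembly they form. Type IV chains build the sheet-like network of basement membranes, fibrillar chains build fibrils, type VI chains build beaded filaments, and FACIT collagens sit on the surface of fibrils. Laminins are cross-shaped molecules of 1 alpha, 1 beta and 1 gamma chain, and with type IV collagen they form the basement membrane under the pia and around vessels, to which the end feet of radial glia attach. In the developing brain this layer is made by meningeal and vascular cells together with neuroepithelial cells, and the choroid plexus has one of its own.

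The genes of type IV chains lie in pairs, head to head, and the stretch between their starts is shared. The annotated bodies of COL4A1 and COL4A2 overlap at their 5' ends. The stretches are shown because the ratio of the 2 genes was compared across libraries for the first 2 pairs, as described further on. COL4A1 and COL4A2 start 126 bases apart, and the sequence between the starts is chr13:110307158-110307283. COL4A6 and COL4A5 start 379 bases apart and COL4A4 and COL4A3 start 418 bases apart, and for these the bases that lie within 250 bases upstream of both starts are chrX:108439588-108439708 and chr2:227164374-227164455. All are on the plus strand of GRCh38.p14, with starts and sequences from RefSeq. Capitals mark 3 promoter motifs on either strand, the CCAAT box, the GC box (searched as GGGCGG) and the TATA box (searched as TATAAA).
COL4A1 and COL4A2: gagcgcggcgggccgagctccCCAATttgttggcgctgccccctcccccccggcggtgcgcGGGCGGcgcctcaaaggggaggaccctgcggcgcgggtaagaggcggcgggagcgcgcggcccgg
COL4A6 and COL4A5: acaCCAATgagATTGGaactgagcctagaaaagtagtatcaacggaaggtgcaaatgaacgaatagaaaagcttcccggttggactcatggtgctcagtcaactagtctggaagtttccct
COL4A4 and COL4A3: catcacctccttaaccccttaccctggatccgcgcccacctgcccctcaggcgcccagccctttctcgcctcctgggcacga
The COL4A1 and COL4A2 stretch is 80.2% G and C and holds 1 CCAAT and 1 GGGCGG. The COL4A6 and COL4A5 stretch is 44.6% G and C and holds 2 CCAAT, 1 on each strand, and the COL4A4 and COL4A3 stretch holds none of the 3 motifs. Among the 35116 windows of 250 bases before to 50 bases after a RefSeq start, 34.6% hold CCAAT, 45.0% hold GGGCGG and 11.5% hold TATAAA. Among the 55 windows of the 41 members that matched, these shares were 29.1%, 58.2% and 14.5%.

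The human cells that passed the filters numbered 4885 in D0, 8277 and 5952 in the HIP and PFC grafts at 2MPT, and 6913 and 8363 in those at 4MPT, 34390 in all. They held between 11192237 and 55892222 UMIs (unique molecular identifiers, 1 per captured RNA molecule) per library, and the median cell had 9847 UMIs in D0 and 1253 to 2759 in grafts. D0 also differed from grafts in age, since grafts were taken 2 or 4 months after transplantation at day 42. Further differences were the enzyme used for dissociation, the Cell Ranger release and the annotation. None of these can be told apart from transplantation, and no in vitro library of matching age is among the 5. Pairs of libraries shared 6 to 20 cell barcodes, the most between HIP_4MPT and PFC_4MPT. Cells were named from marker genes after clustering without the collagen and laminin genes. The make-up of libraries differed: 1087 cells of D0 were choroid plexus-like and 1343 were Cajal-Retzius neuron-like, against 7 to 20 and 1 to 5 in each graft, and 8.82% of D0 cells were glutamatergic neuron-like, against 49.5% to 77.1% in grafts. Levels are given as CPM, the standard depth scaling of counts, in which all genes of a library or class have the same total. The summed level of 8 choroid plexus markers was 6156 CPM in D0 and 5.16 to 12.6 CPM in grafts. Nearly all of the D0 sum was TTR. FOLR1, AQP1, CLIC6 and OTX2 were also lower in each graft than in D0. PRLR went the other way and was higher in each graft, KCNJ13 in HIP_4MPT was close to its D0 level, and SLC5A5 was scarcely detected in any library.

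Most members were detected in every library but few were abundant. In D0, 54 members had at least 1 UMI, and COL10A1 and COL6A5 had 0 of 55892222 UMIs, which allows up to 0.0537 CPM for each. At least 10 CPM was reached by 16 members in D0 and by 11, 9, 10 and 9 members in HIP_2MPT, PFC_2MPT, HIP_4MPT and PFC_4MPT. All members together came to 589.9 CPM in D0 and 322.4, 333.1, 352.6 and 329.7 CPM in the same order of grafts. The collagens made up this difference: they summed to 521.9 CPM in D0 and to between 235.2 and 289.1 CPM in grafts, while the laminins summed to 68.1 CPM in D0 and to between 57.6 and 87.2 CPM in grafts. The reads come from the 3' ends of transcripts, so levels are compared here for 1 gene across libraries and not between genes.

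**Figure D1:**
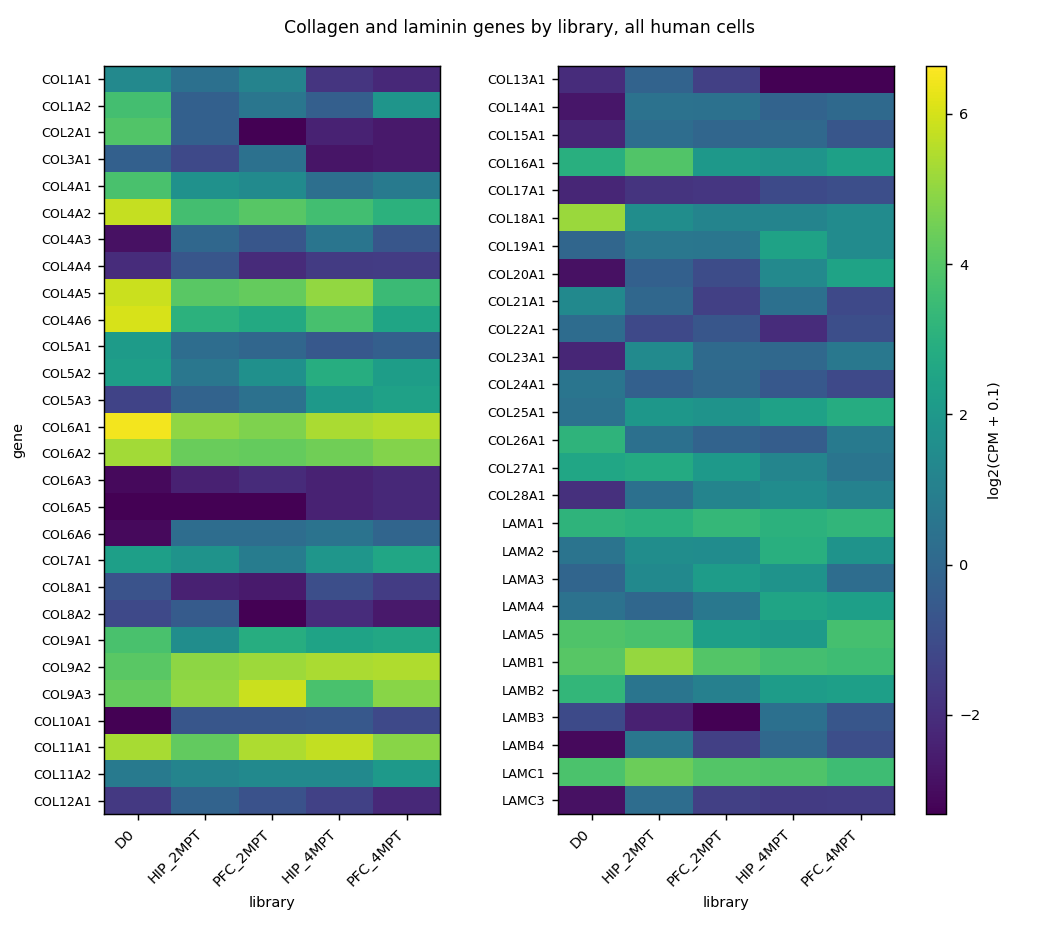
Level of 55 of the 56 genes in each library over all human cells, as log2(CPM + 0.1) on a colour scale, with genes as rows and the 5 libraries as columns. The D0 column is the brightest for the type IV chains COL4A1, COL4A2, COL4A5 and COL4A6, for COL6A1, COL18A1 and COL2A1, while rows such as COL6A6, COL14A1 and COL20A1 are darkest in D0.

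The first comparison asked what differed between organoids before transplantation and grafts at 2MPT. At 2MPT the members called lower included COL4A1, COL4A2, COL4A5, COL4A6, COL18A1, COL6A1, COL6A2 and LAMB2, and those called higher included COL6A6, COL14A1, COL23A1 and COL28A1, which had 1 to 9 UMIs each in D0. Counts were summed over all human cells of a library, and the 2 graft sites were taken as the replicates of a stage (n = 2 libraries at 2MPT, 2 at 4MPT and 1 at D0, which was assumed to vary like the others). Of 50 members with enough counts for the test, 24 were called, 9 of them higher and 15 lower (edgeR quasi-likelihood test, Benjamini-Hochberg adjusted p under 0.05 over all genes). Of all 19074 genes tested, 48.3% were called, 27.2% higher and 21.1% lower, so the members were called about as often as other genes. The median log2(Fold change) was -0.39 over the members and 0.07 over all genes. At 4MPT against D0, 33 of 50 members were called, 14 higher and 19 lower, where 50.1% of all genes were called, 28.7% higher and 21.4% lower, and the medians were -0.58 and 0.08. COL10A1, COL17A1, COL4A4, COL6A3, COL6A5 and COL8A1 had too few counts to be tested, at no more than 0.567 CPM in any library. In sums over all cells, fewer cells of a type and less RNA per cell cannot be told apart. The libraries at 2MPT and 4MPT are set against the same D0 library, so the values at the 2 stages are not independent of each other.

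Among the network-forming collagens, the 4 abundant type IV chains were lower in all 4 grafts than in D0. COL4A2, the partner chain of the most widespread type IV molecule, was at 54.8 CPM in D0, at 12.6 and 16.6 CPM in HIP_2MPT and PFC_2MPT, and at 12.2 and 8.40 CPM in HIP_4MPT and PFC_4MPT. Its log2(Fold change) was -2.28 at 2MPT (SE 0.31, adjusted p = 0.00021) and -2.73 at 4MPT (SE 0.31, adjusted p = 6.9e-05). COL4A1, which supplies the other chains of that molecule, was at 13.8 CPM in D0 and at 3.16, 2.61, 1.13 and 1.62 CPM in the grafts in the same order. COL4A6, on the X chromosome, was at 65.5 CPM in D0 and at 8.40, 6.62, 13.3 and 5.70 CPM in grafts, a log2(Fold change) of -3.50 at 2MPT (SE 0.40, adjusted p = 7.4e-05) and -3.11 at 4MPT (SE 0.39, adjusted p = 0.00013). COL4A5, which can join COL4A6 in 1 molecule, was at 57.2 CPM in D0 and at 17.0, 19.5, 32.3 and 10.9 CPM in grafts, a log2(Fold change) of -2.02 at 2MPT (SE 0.45, adjusted p = 0.0042) and -1.74 at 4MPT (SE 0.45, adjusted p = 0.0084). For each of these chains the graft values lay below the D0 value without overlap of the counting intervals. COL4A3 was called higher from a level near the limit: it had 2 UMIs in D0, 18 in both 2MPT libraries together and 38 in both 4MPT libraries, a ratio of CPM to D0 of 19.3 (95% counting interval 4.63 to 172) and 28.1 (7.25 to 240), while COL4A4 had 2 to 8 UMIs in each library and was not tested. The COL4A3 call at 4MPT was lost without HIP_4MPT (adjusted p = 0.091). COL4A1 and COL4A2 lie at chr13:110148963-110307157 and chr13:110305812-110513209, and COL4A6 and COL4A5 at chrX:108155607-108439497 and chrX:108439838-108697545 (GRCh38.p14).

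**Figure D2:**
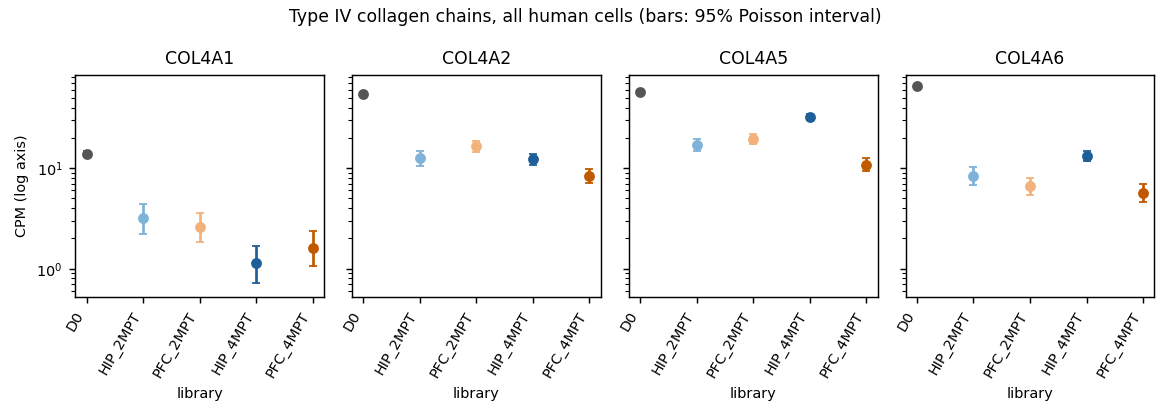
Level of 4 type IV chains in each library over all human cells, in CPM on a log axis, with 1 point per library and bars for the 95% Poisson counting interval. The D0 point is above all 4 graft points in each panel, and among grafts HIP_4MPT is the highest for COL4A5 (32.3 CPM) and COL4A6 (13.3 CPM) but not for COL4A1 or COL4A2.

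The ratio of the 2 genes differed between libraries for COL4A5 and COL4A6 and for COL4A1 and COL4A2. Of the UMIs of COL4A5 and COL4A6 together, COL4A5 took 46.6% in D0 (95% binomial interval 45.4 to 47.8, exact Clopper-Pearson) and 66.9%, 74.7%, 70.9% and 65.6% in the grafts in that order, where the lowest bound of any graft was 59.6%. COL4A5 thus held a larger share in all 4 grafts than in D0, while both genes were lower. Of the UMIs of COL4A1 and COL4A2, COL4A1 took 20.1% in D0 and 20.1%, 13.6%, 8.48% and 16.2% in the grafts, and the interval of HIP_4MPT (5.51 to 12.4) and that of PFC_2MPT (9.84 to 18.1) lay below that of D0 (18.9 to 21.4). Shares also differed for chains that do not lie head to head. COL6A1 took 69.9% of the UMIs of COL6A1 and COL6A2 in D0 (68.8 to 70.9). In the grafts it took 60.5%, 57.6%, 64.9% and 62.5%, with no upper bound above 67.4%. LAMB1 took 54.2% of those of LAMB1 and LAMC1 in D0 and 60.8%, 50.1%, 45.6% and 50.1% in grafts. COL1A1 took 16.5% of those of COL1A1 and COL1A2 in D0 and, on few UMIs, 61.9%, 59.6%, 21.1% and 3.23% in grafts. The annotation differs between D0 and grafts, and its part in the shares was not tested. All intervals here cover counting error alone.

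COL18A1, a basement membrane collagen that carries heparan sulphate and whose end fragment is endostatin, had one of the largest changes of any abundant member. It was at 34.8 CPM in D0 and at 2.89, 2.14, 2.17 and 2.70 CPM in HIP_2MPT, PFC_2MPT, HIP_4MPT and PFC_4MPT, so that the 4 grafts lay close together and far below D0. The log2(Fold change) was -4.17 at 2MPT (SE 0.37, adjusted p = 1.8e-05) and -4.15 at 4MPT (SE 0.36, adjusted p = 1.6e-05). Its relative COL15A1 had 6 UMIs in D0 (0.107 CPM) and 9 to 20 UMIs in each graft (0.540 to 1.08 CPM), a log2(Fold change) of 2.75 at 2MPT (SE 0.89, adjusted p = 0.026), but the call was lost without HIP_4MPT (adjusted p = 0.055) and with DESeq2 (adjusted p = 0.078). COL7A1, the anchoring fibril collagen, was at 4.83 CPM in D0 and at 1.74 to 5.94 CPM in grafts and was not called at either stage in all cells.

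The type VI chains COL6A1 and COL6A2, which form beaded filaments together with a chain such as COL6A3, were lower in all 4 grafts than in D0. COL6A1 was at 89.3 CPM in D0, at 31.5 and 26.5 CPM at 2MPT and at 41.6 and 46.4 CPM at 4MPT (HIP before PFC), a log2(Fold change) of -2.0 at 2MPT (SE 0.26, adjusted p = 0.00019) and -1.34 at 4MPT (SE 0.26, adjusted p = 0.002). COL6A2 was at 38.5 CPM in D0 and at 20.6, 19.5, 22.5 and 27.8 CPM in grafts, with -1.31 at 2MPT (SE 0.28, adjusted p = 0.0034) and -0.93 at 4MPT (SE 0.28, adjusted p = 0.019). Partner chains were scarcely detected: COL6A3 had 1 or 2 UMIs in every library and COL6A5 had 0 to 2. COL6A6, another such partner, had 1 UMI in D0 and 12 to 27 in each graft, a ratio to D0 of 60.1 (9.94 to 2458) at 2MPT and 60.5 (10.3 to 2449) at 4MPT. Against the human-mouse dual reference the grafts had 5, 10, 18 and 4 COL6A6 UMIs in place of 12, 16, 27 and 14 (HIP_2MPT, PFC_2MPT, HIP_4MPT, PFC_4MPT), so these ratios are lower by that reference, which D0 does not have. The call for COL6A2 at 4MPT was lost without HIP_4MPT (-0.73, adjusted p = 0.11) and without choroid plexus-like cells (-0.67, adjusted p = 0.071).

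The fibrillar collagens COL1A1, COL1A2, COL2A1 and COL3A1 were at no more than 3.60 CPM in any graft. COL2A1, the main fibril collagen of cartilage, had 856 UMIs in D0 (15.3 CPM) and 8, 0, 2 and 1 UMIs in HIP_2MPT, PFC_2MPT, HIP_4MPT and PFC_4MPT. Its ratio to D0 at 4MPT was 0.00518 (95% counting interval 0.00107 to 0.0152), and it was called lower at 2MPT (log2(Fold change) -5.93, SE 0.81, adjusted p = 0.00023), though not with DESeq2 (adjusted p = 0.053). In D0, 338 of its UMIs were in choroid plexus-like, 230 in radial glia-like and 155 in cycling progenitor-like cells. COL1A2, a chain of type I collagen, had 696 UMIs in D0, 598 of them in choroid plexus-like cells and 270 of them in 10 cells. It was at 12.5 CPM in D0 and at 0.723, 1.40, 0.708 and 3.60 CPM in grafts, a log2(Fold change) of -3.88 at 2MPT (SE 0.74, adjusted p = 0.0018). At 4MPT the value was -2.85 (SE 0.69, adjusted p = 0.0064) with all cells and -0.29 (adjusted p = 0.78) without choroid plexus-like cells. Of its 60 UMIs in PFC_4MPT, 42 were in inhibitory neuron-like cells. COL1A1 was at 2.47 CPM in D0 and at 1.17, 2.07, 0.189 and 0.120 CPM in grafts. COL3A1 had 41 UMIs in D0 (0.734 CPM) and 4, 18, 1 and 1 in grafts (0.361, 1.20, 0.0472 and 0.0600 CPM). The 18 UMIs of PFC_2MPT, above D0 in CPM, were in a single cell. The summed level of 8 fibroblast or mesenchymal markers was 20.3 CPM in D0 and 17.3 to 30.8 CPM in grafts, but its markers did not move together. The marker counts that follow are raw, and the libraries held 55892222 UMIs in D0 and 11192237 to 21459173 in grafts. Gaps between D0 and grafts in raw counts are thus not gaps in CPM. PDGFRB had 833 UMIs in D0 and 26, 49, 203 and 109 in grafts, and LUM had 154 and 3, 11, 5 and 1. DCN had 90 UMIs in D0, the deepest library, and 128, 352, 108 and 295 in grafts, and OGN had 1 and 22, 36, 57 and 31. The other markers had at most 25 UMIs in any library. The part of such cells in these results was not tested.

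The minor fibrillar chains moved in both directions. COL5A1 fell from 4.31 CPM in D0 to 1.08, 0.869, 0.567 and 0.720 CPM, a log2(Fold change) of -2.52 at 2MPT (SE 0.53, adjusted p = 0.003) and -3.06 at 4MPT (SE 0.53, adjusted p = 0.00092). COL5A3, which pairs with other type V chains, was at 0.304 CPM in D0 and at 0.813, 1.20, 3.97 and 5.10 CPM in grafts, and was called higher at 4MPT (3.56, SE 0.64, adjusted p = 0.0012). All 17 of its D0 UMIs were in choroid plexus-like cells, and in HIP_4MPT 37 of 84 were in astrocyte-like cells. COL5A2, the partner of COL5A1, was at 4.67 CPM in D0 and at 1.45, 3.08, 7.32 and 4.56 CPM in grafts. It was called lower at 2MPT (-1.39, SE 0.51, adjusted p = 0.044), but not without choroid plexus-like cells (-0.29, adjusted p = 0.68), without HIP_2MPT (-0.95, adjusted p = 0.16), without either 4MPT library (adjusted p = 0.053 and 0.09) or with DESeq2 (adjusted p = 0.077). COL11A1, a fibril-nucleating chain, was at 40.01 CPM in D0 and at 18.9, 43.1, 52.3 and 29.4 CPM in grafts, on both sides of the D0 value, and was called at neither stage (2MPT -0.73, SE 0.44, adjusted p = 0.2). COL27A1 was at 5.84 CPM in D0 and 6.69, 4.08, 2.22 and 1.38 CPM in grafts, and was called lower at 4MPT (-2.01, SE 0.47, adjusted p = 0.0049) but not without PFC_4MPT (-1.69, adjusted p = 0.058). COL24A1 (-1.85, SE 0.64, adjusted p = 0.033) and COL3A1 were called lower at 4MPT, and both calls were lost without either 4MPT library (adjusted p 0.075 to 0.15).

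FACIT collagens, which bind to the outside of fibrils, split by chain. COL9A2, a chain of type IX collagen, was at 17.1 CPM in D0 and at 30.5, 36.0, 41.98 and 44.3 CPM in grafts, all above D0, a log2(Fold change) of 0.58 at 2MPT (SE 0.29, adjusted p = 0.11) and 1.02 at 4MPT (SE 0.29, adjusted p = 0.014), the latter lost without PFC_4MPT (adjusted p = 0.055). COL9A1, a partner chain of the same molecule, went from 13.5 CPM in D0 to 2.89, 7.35, 5.43 and 6.18 CPM, with -1.75 at 2MPT (SE 0.48, adjusted p = 0.012) and -1.54 at 4MPT (SE 0.47, adjusted p = 0.02), and without PFC_4MPT the calls were lost at 2MPT (adjusted p = 0.051) and 4MPT (adjusted p = 0.1), as was the 4MPT call without HIP_4MPT (adjusted p = 0.094). COL9A3, the remaining chain, was at 19.2 CPM in D0 and at 32.3, 57.0, 13.8 and 28.9 CPM in grafts, and was not called. COL20A1, of the same family, had 2 UMIs in D0 and 8, 6, 52 and 89 in HIP_2MPT, PFC_2MPT, HIP_4MPT and PFC_4MPT, a ratio to D0 of 15.0 (3.45 to 136) at 2MPT and 104 (28.3 to 868) at 4MPT. COL14A1 had 3 UMIs in D0 and 14 to 18 in each graft. COL16A1 was at 7.68 CPM in D0 and at 15.1, 3.88, 3.49 and 4.92 CPM in grafts and was not called. COL19A1 rose from 0.877 CPM in D0 to 5.24 CPM in HIP_4MPT and 2.70 CPM in PFC_4MPT (1.85, SE 0.58, adjusted p = 0.022), but not without HIP_4MPT (1.36, adjusted p = 0.15). COL21A1 was at 2.52 CPM in D0, where 120 of 141 UMIs were in choroid plexus-like cells, and at 0.904, 0.267, 1.18 and 0.360 CPM in grafts. Its log2(Fold change) at 2MPT was -2.54 (SE 0.76, adjusted p = 0.019) with all cells and -0.07 (adjusted p = 0.96) without choroid plexus-like cells. At 4MPT it was -2.0 (SE 0.71, adjusted p = 0.036) with all cells and 0.46 (adjusted p = 0.69) without choroid plexus-like cells. COL22A1 was also called lower at 4MPT (-2.25, SE 0.80, adjusted p = 0.037), a call lost without HIP_4MPT (adjusted p = 0.24), without PFC_4MPT (adjusted p = 0.057) and without choroid plexus-like cells (adjusted p = 0.081).

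Of the collagens with a membrane-spanning part, COL25A1, found in neurons, rose from 1.25 CPM in D0 to 3.80, 3.34, 5.10 and 7.14 CPM in grafts and was called at 4MPT (1.97, SE 0.50, adjusted p = 0.0077). COL23A1 had 6 UMIs in D0 (0.107 CPM) and 2.62, 1.00, 0.944 and 1.501 CPM in grafts, with 3.61 at 2MPT (SE 0.91, adjusted p = 0.0079). COL13A1, which also spans the membrane, had 8 UMIs in D0, 9 and 4 at 2MPT and 0 in both 4MPT libraries, and was not called. Outside this class, COL26A1 fell from 8.77 CPM in D0 to 1.17, 0.802, 0.661 and 1.56 CPM, with -3.53 at 2MPT (SE 0.56, adjusted p = 0.00058) and -3.31 at 4MPT (SE 0.54, adjusted p = 0.00068). COL28A1, also outside it, had 9 UMIs in D0 and 13 to 59 in each graft, with 2.98 at 2MPT (SE 0.74, adjusted p = 0.0072). COL8A2, COL11A2 and COL12A1 were not called either, at 0 to 0.633 CPM, 1.58 to 4.02 CPM and 0.120 to 0.813 CPM.

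The members that were higher in grafts had mostly been close to absent in D0. Of 15 members under 0.2 CPM in D0, 10 were over 0.2 CPM in each graft: COL10A1, COL14A1, COL15A1, COL20A1, COL23A1, COL28A1, COL4A3, COL6A6, LAMB4 and LAMC3. Of all 15871 genes under 0.2 CPM in D0, 2570 (16.2%) met the same condition. Choosing genes by a low D0 level favours higher values in grafts, so these counts are a description with no test. The bar of 0.2 CPM is also near the limit of detection in grafts. LAMC3 had 4, 5 and 4 UMIs in PFC_2MPT, HIP_4MPT and PFC_4MPT, and LAMB4 had 4 in PFC_2MPT. Genes with long introns were shifted as a class: among genes with over 100 kb of intron, the median log2(Fold change) at 2MPT against D0 was 1.13 and 51.3% were called higher, against -0.20 and 18.1% among genes with under 20 kb. Of the members tested, 28 had over 100 kb of intron, with a median of -0.39, 6 called higher and 9 called lower. Among all genes of that intron length, 10.1% were called lower. Whether reads in introns were counted is not given in the sources used here, and the part of intron length and of the D0 annotation in these results was not tested.

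Among laminin alpha chains, LAMA1 was at 8.86 CPM in D0 and at 7.95, 9.83, 8.26 and 9.30 CPM in grafts, on both sides of D0, and was not called (-0.36 at 2MPT, SE 0.36, adjusted p = 0.43). LAMA1 is the alpha chain of the laminin found in the earliest basement membranes. LAMA4, an alpha chain of vessel laminins, was at 1.25 CPM in D0, 0.904 and 1.47 CPM at 2MPT and 5.52 and 4.80 CPM at 4MPT, and was called higher at 4MPT (1.72, SE 0.52, adjusted p = 0.019), but not without HIP_4MPT (adjusted p = 0.071) or PFC_4MPT (adjusted p = 0.062). LAMA2, the alpha chain of muscle and of vessel laminins, was at 1.32 CPM in D0 and at 2.89, 2.74, 7.70 and 3.36 CPM in grafts (4MPT 1.73, SE 0.56, adjusted p = 0.026), and without HIP_4MPT the value was 1.08 (adjusted p = 0.19). LAMA5 was at 14.9 CPM in D0 and at 13.7, 4.81, 4.16 and 12.97 CPM in grafts, and was not called. LAMB2, a beta chain of mature basement membranes, was lower: 9.63 CPM in D0 against 1.36 and 1.94 CPM at 2MPT and 4.39 and 4.86 CPM at 4MPT, with -2.90 at 2MPT (SE 0.43, adjusted p = 0.00038) and -1.37 at 4MPT (SE 0.41, adjusted p = 0.017). The 4MPT call for LAMB2 was lost without HIP_4MPT (adjusted p = 0.087), PFC_4MPT (adjusted p = 0.067) or choroid plexus-like cells (adjusted p = 0.11). LAMB1 and LAMC1, the beta and gamma chains of most laminins, were not called: LAMB1 was at 16.5 CPM in D0 and 33.1, 15.7, 12.6 and 11.6 CPM in grafts, and LAMC1 at 13.9 CPM in D0 and 21.3, 15.6, 15.0 and 11.6 CPM. LAMA3, an alpha chain, and LAMB3, a beta chain, were not called, at 0.859 to 4.48 CPM and 0 to 1.18 CPM. LAMB4 had 1 UMI in D0 and 20 at 2MPT, and LAMC3 had 2 and 16, with ratios to D0 of 42.9 (6.87 to 1780) and 17.2 (4.04 to 154). The LAMB4 call at 2MPT was lost without HIP_2MPT and without PFC_4MPT. The LAMC3 call was lost without either 4MPT library, with DESeq2 (adjusted p = 0.1) and without choroid plexus-like cells (edgeR, adjusted p = 0.059).

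Some calls of these D0 contrasts were lost without choroid plexus-like cells, without single 4MPT libraries or with the other tool. DESeq2 called 19 of 50 members at 2MPT and 28 at 4MPT, where 8052 and 8293 of 19074 genes were called. Without choroid plexus-like cells, 26 of 48 members were called at 2MPT (12 higher, 14 lower) and 27 at 4MPT (14 higher, 13 lower). In those fits 8999 and 9455 of 18949 genes were called. COL18A1, COL4A1, COL4A2, COL4A5, COL4A6, COL6A1, COL5A1, COL26A1 and COL2A1 were still called lower at both stages without choroid plexus-like cells. Calls lost without a single 4MPT library are given with their genes above. Those fits leave 1 library at 4MPT and a weaker test. The 4MPT libraries are not part of the 2MPT contrast, and its values moved little without HIP_4MPT for COL15A1 (2.76) or COL5A2 (-1.38). Without PFC_4MPT, COL5A2 was at -1.33 and COL9A1 at -1.69.

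Within cell classes the same comparison asked whether members differed among cells of 1 kind. In progenitor-like cells (radial glia-like and cycling progenitor-like, 1707 cells in D0 and 368 to 581 in each graft), COL4A1, COL4A2, COL4A6, COL6A1, COL6A2 and COL18A1 were lower at 2MPT. Of 25 members tested, 11 were called, 2 higher and 9 lower, where 34.8% of 13090 genes were called, 20.6% higher and 14.2% lower. COL18A1 had a log2(Fold change) of -4.35 (SE 0.56, adjusted p = 3.1e-05), COL4A1 of -3.58 (SE 0.56, adjusted p = 0.00017), COL4A6 of -2.52 (SE 0.41, adjusted p = 0.00024), COL6A1 of -2.25 (SE 0.42, adjusted p = 0.00071) and COL4A2 of -2.09 (SE 0.34, adjusted p = 0.00022). COL6A2, LAMB2, COL2A1 and COL26A1 were also called lower, with 3 UMIs of COL2A1 and 2 of COL26A1 at 2MPT. None of these last 4 was called with DESeq2 (adjusted p 0.19 to 0.73). COL4A5, in contrast to all cells, was at -0.58 (SE 0.45, adjusted p = 0.34), and in radial glia-like cells it was at 59.9 CPM in D0 and at 62.9, 58.0, 71.7 and 36.6 CPM in HIP_2MPT, PFC_2MPT, HIP_4MPT and PFC_4MPT. The laminin alpha chains LAMA2 (3.92, SE 1.05, adjusted p = 0.0091) and LAMA3 (3.74, SE 0.69, adjusted p = 0.00065) were called higher. Radial glia-like cells alone, of which D0 had 981 and each graft 93 to 173, kept COL18A1 (-3.90), COL4A2 (-2.88), COL4A6 (-1.79) and COL6A1 (-2.06) as the 4 members called, of 10 tested, where 1976 of 7287 genes were called.

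In neuron-like cells COL4A1, COL4A2, COL4A6, COL6A1, COL6A2 and COL18A1 were lower as well, and COL9A2, COL9A3 and LAMB1 were higher, while COL4A5 (-1.40, adjusted p = 0.073) and COL9A1 (-0.72, adjusted p = 0.32) were not called. Of 38 members tested, 22 were called, 10 higher and 12 lower, where 43.5% of 17586 genes were called, 26.2% higher and 17.3% lower, and the median over all genes was 0.14. COL9A2 had a log2(Fold change) of 1.68 (SE 0.35, adjusted p = 0.0019), LAMB1 of 1.97 (SE 0.41, adjusted p = 0.0019) and COL9A3 of 1.44 (SE 0.46, adjusted p = 0.022), and COL9A3 was not called without PFC_2MPT (0.71, adjusted p = 0.19). COL6A1 was at -1.77 (SE 0.29, adjusted p = 0.00035), COL18A1 at -2.79 (SE 0.51, adjusted p = 0.00067), COL4A6 at -2.86 (SE 0.60, adjusted p = 0.0018) and COL4A2 at -1.70 (SE 0.37, adjusted p = 0.0025). COL2A1, COL26A1, LAMB2, COL5A1, COL27A1, COL4A1, COL7A1 and COL6A2 were the other 8 called lower. DESeq2 did not call COL2A1 (adjusted p = 0.58), COL5A1 (0.11), COL27A1 (0.073), COL4A1 (0.056) or COL7A1 (0.07), and with no integration COL4A1 (-0.68, adjusted p = 0.31), COL4A6 (-1.68, 0.057) and LAMB2 (-1.51, 0.19) were not called. LAMA2 (3.25, SE 0.82, adjusted p = 0.006) was called higher, as were COL14A1, COL15A1, COL23A1, COL28A1 and COL6A6, each with 1 UMI in D0, and COL5A3, with 0 UMIs in D0 and 11 at 2MPT, which is at least 3.61-fold higher against a floor of 3 counts. Of these, DESeq2 did not call COL15A1 (adjusted p = 0.083), COL5A3 (0.065) or COL6A6 (0.057). The make-up of this class was not alike: of 2000 neuron-like cells in D0, 1343 were Cajal-Retzius neuron-like (cluster 10), while the glutamatergic neuron-like clusters held most of those in grafts. Without Cajal-Retzius neuron-like cells, 17 of 39 members were called, 7 higher and 10 lower, where 6603 of 17396 genes were called. COL9A2 (1.77), LAMB1 (2.44), COL6A1 (-1.67), COL18A1 (-3.37), COL4A1 (-2.38), COL4A2 (-2.34) and COL4A6 (-3.58) were among them, and COL15A1, COL27A1, COL5A3, COL6A2, COL7A1 and LAMA2 were not.

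**Figure D3:**
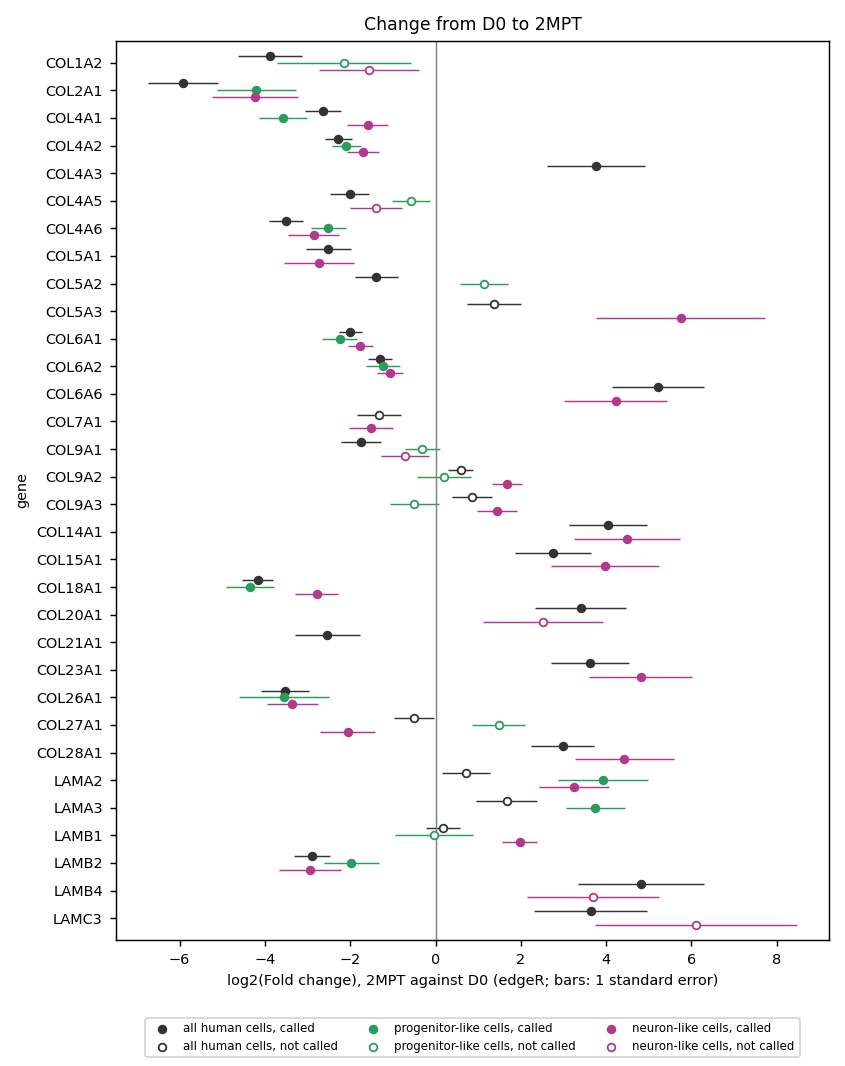
log2(Fold change) of 2MPT against D0 for every member called in at least 1 of 3 sums: all human cells, progenitor-like cells and neuron-like cells (points, with bars of 1 standard error; filled where called). COL18A1, COL4A1, COL4A2, COL4A6 and COL6A1 are left of 0 and filled in all 3 sums, and COL4A5 is filled in all human cells alone; the sizes of members with 3 UMIs or fewer in a group, such as COL6A6, depend on the fit's prior count.

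Among classes of at least 50 cells, the summed level of members in D0 was highest in choroid plexus-like and astrocyte-like cells and lowest in inhibitory neuron-like cells. The astrocyte-like class of D0 rests on 66 cells, and with no integration D0 had no such cells. In D0 it was 1151 CPM in choroid plexus-like, 815 in astrocyte-like, 569 in cycling progenitor-like, 542 in radial glia-like, 470 in intermediate progenitor-like, 350 in Cajal-Retzius neuron-like, 340 in glutamatergic neuron-like and 259 in inhibitory neuron-like cells. In grafts, astrocyte-like cells held between 638 and 784 CPM, glutamatergic neuron-like cells between 292 and 328 CPM, and the oligodendrocyte lineage-like cells of HIP_4MPT and PFC_4MPT held 806 and 919 CPM. Radial glia-like cells went from 542 CPM in D0 to 554, 426, 373 and 267 CPM in HIP_2MPT, PFC_2MPT, HIP_4MPT and PFC_4MPT. The PFC_4MPT value rests on 73 UMIs of members, with a counting interval of 209 to 336 CPM. That interval includes the 297 CPM of glutamatergic neuron-like cells of the same library, so these classes cannot be ranked there. Classes of a library share that library, so these levels are a description with no test.

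In astrocyte-like cells COL11A1, COL4A5 and COL4A6 were well above their levels in glutamatergic neuron-like cells, in each library. COL11A1 was at 91.1 CPM in D0 and at 127, 178, 156 and 163 CPM in HIP_2MPT, PFC_2MPT, HIP_4MPT and PFC_4MPT, above the 7.26 to 27.3 CPM of glutamatergic neuron-like cells of grafts. COL4A5 was at 115 CPM in astrocyte-like cells of D0 and at 132, 92.9, 93.1 and 65.9 CPM in those of grafts, while COL4A6 went from 147 CPM to 66.9, 40.5, 53.8 and 45.0 CPM. COL6A1 was at 97.5 CPM in astrocyte-like cells of D0 and at 45.3, 70.8, 107 and 144 CPM in those of grafts. D0 had 66 such cells. With no integration it had 0, where the grafts had 426 to 765, so the D0 values of this class rest on the integration.

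Oligodendrocyte lineage-like cells, 65 in HIP_4MPT and 103 in PFC_4MPT, carried most of COL20A1. It was at 160 and 202 CPM there, 36 of the 52 COL20A1 UMIs of HIP_4MPT and 53 of the 89 of PFC_4MPT, and at no more than 5.01 CPM in any other class of at least 50 cells. With each cell thinned to 1000 UMIs, 15.9% of these cells had a COL20A1 UMI in HIP_4MPT (10 of 63, 95% interval 7.88 to 27.3) and 15.2% in PFC_4MPT (15 of 99, 8.74 to 23.8), against 0.0835% and 0.208% of glutamatergic neuron-like cells. Without thinning the shares of COL20A1 were 36.9% and 31.1%. COL9A1 (120 and 141 CPM), COL9A3 (93.5 and 172 CPM) and LAMA4 (62.3 and 72.5 CPM) were high in the same cells. COL9A2 was at 93.5 and 68.7 CPM there but did not set these cells apart. Its levels in glutamatergic neuron-like cells of the same libraries, given below, were not far lower, and those in an unnamed cluster were higher. The oligodendrocyte lineage-like cells held 181 member UMIs in HIP_4MPT and 241 in PFC_4MPT, so each of these levels rests on few UMIs.

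In glutamatergic neuron-like cells, COL9A2 was at 10.0 CPM in D0 and at 34.3, 51.4, 77.4 and 64.1 CPM in grafts, and LAMB1 at 5.67 CPM in D0 and at 39.6, 24.5, 24.7 and 17.6 CPM. LAMB1 had been a gene of other cells in D0, where 678 of its 921 UMIs were in choroid plexus-like cells. The thinned share of glutamatergic neuron-like cells with a LAMB1 UMI was 0.268% in D0 (1 of 373) and 3.80%, 2.38%, 2.14% and 1.59% in grafts, against 0 to 1.20% in astrocyte-like cells. COL16A1 was likewise a neuron-like gene, with 330 of 429 UMIs in Cajal-Retzius neuron-like cells in D0 and 151 of 167 in glutamatergic neuron-like cells in HIP_2MPT. The type IV chain COL4A2 differed from COL4A5 in where it was high: in D0 it was at 108 CPM in intermediate progenitor-like, 90.1 in cycling progenitor-like, 68.2 in radial glia-like and 18.6 CPM in choroid plexus-like cells, and COL4A5 at 30.7, 63.6, 59.9 and 126 CPM in these.

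Other members reached 50 CPM in choroid plexus-like cells of D0 or in clusters 5 and 13. COL18A1 reached 79.1 CPM, COL1A2 66.8 CPM, LAMB1 75.8 CPM, COL6A2 73.7 CPM and COL9A2 55.2 CPM in choroid plexus-like cells of D0. Cluster 5 held genes of astrocyte-like and of oligodendrocyte lineage-like cells and is given by its number. Its 51 cells in HIP_2MPT had LAMC1 at 73.5 CPM and COL27A1 and LAMA1 at 61.3 CPM. These cells held 81585 UMIs, 47 of them of members, so each of these levels rests on a few UMIs. Cluster 13, which no marker list named and of which 866 of 1014 cells were in PFC_4MPT, had COL9A2 at 102 CPM in HIP_4MPT and 110 CPM in PFC_4MPT. Its 81 cells in HIP_4MPT held 98264 UMIs, 46 of them of members.

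**Figure D4:**
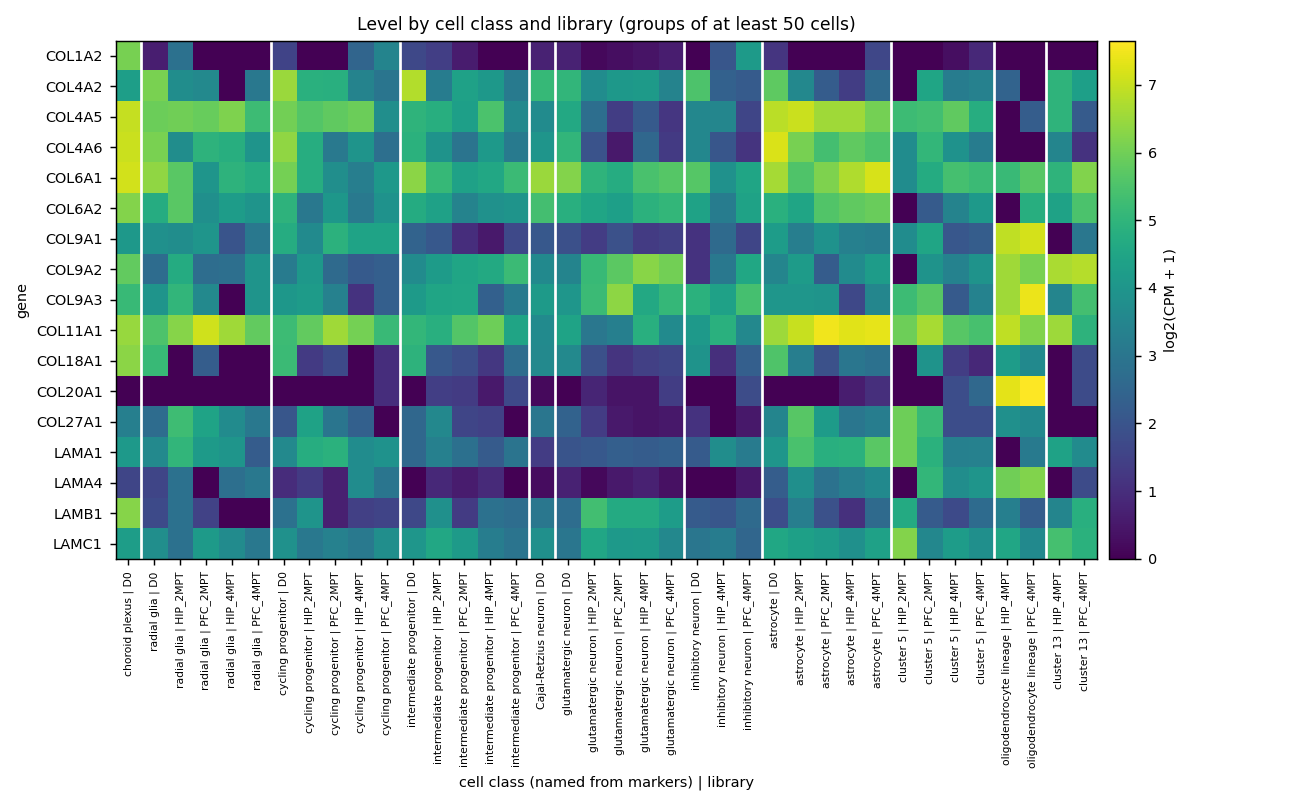
Level of the 17 members that reached 50 CPM in at least 1 class of at least 50 cells, as log2(CPM + 1) on a colour scale, with genes as rows and each class in each library as a column, grouped by class. COL20A1 is bright in the 2 oligodendrocyte lineage columns alone, COL11A1 is bright in the astrocyte columns, and COL18A1 is bright in the D0 columns of choroid plexus, radial glia, cycling progenitor and astrocyte cells.

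The comparison of 4MPT with 2MPT asked what changed between the 2 stages after transplantation. COL20A1, COL5A3 and LAMA4 were higher and COL1A1 was lower at 4MPT in all human cells. These were 4 of 50 members, 3 higher and 1 lower, where 2.4% of all genes were called, 1.85% higher and 0.55% lower. The median change of members was 0.03. COL20A1 went from 0.723 and 0.401 CPM at 2MPT to 2.46 and 5.34 CPM at 4MPT (HIP and PFC), a log2(Fold change) of 2.88 (SE 0.62, adjusted p = 0.038). Oligodendrocyte lineage-like cells, in which COL20A1 was high, numbered 1 and 0 at 2MPT and 65 and 103 at 4MPT. COL5A3 went from 0.813 and 1.20 CPM to 3.97 and 5.10 CPM (2.20, SE 0.48, adjusted p = 0.04). LAMA4 went from 0.904 and 1.47 CPM to 5.52 and 4.80 CPM (2.14, SE 0.45, adjusted p = 0.033), and cluster 5, which held 54 of its 117 UMIs in HIP_4MPT and 36 of its 80 in PFC_4MPT, went from 51 and 99 cells to 1207 and 883. COL1A1 went from 13 and 31 UMIs to 4 and 2 (-3.29, SE 0.67, adjusted p = 0.03), but 28 of the 31 UMIs of PFC_2MPT were in 1 choroid plexus-like cell, and without choroid plexus-like cells the value was -1.52 (adjusted p = 0.55). In all 4 genes the 2 libraries of a stage lay on the same side of both libraries of the other. Without PFC_4MPT none of these calls was kept, without HIP_4MPT only that of COL20A1, and without HIP_2MPT those of COL5A3 and LAMA4 were lost. Each of these fits leaves 1 library at a stage and fewer residual degrees of freedom. Without either 4MPT library, fewer of all genes were called as well. A lost call therefore need not come from the library left out.

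Within classes no member was called between 2MPT and 4MPT in the main fit. On simulated data this comparison found 3 of 100 2-fold changes in neuron-like cells and 1 of 100 in astrocyte-like cells, so a member not called may still have changed. The shares of all genes given here are at the adjusted threshold. The share of all genes with an unadjusted p under 0.05 was not computed, so the unadjusted counts of members have no base beside them. In progenitor-like cells 0 of 25 were called and 9 had an unadjusted p under 0.05, where 0.642% of genes were called (0.42% higher, 0.222% lower). The lowest adjusted p was that of COL4A2 (-1.50, SE 0.38, adjusted p = 0.11). In neuron-like cells 0 of 38 were called and 10 had an unadjusted p under 0.05, where 1.93% of genes were called (1.27% higher, 0.665% lower), and COL19A1 was first (1.80, SE 0.54, adjusted p = 0.12). In astrocyte-like cells 0 of 15 were called and 4 had an unadjusted p under 0.05, where 1.38% of genes were called (0.957% higher, 0.418% lower). Those 4 were COL5A2 (1.92, SE 0.48, adjusted p = 0.083), COL5A3 (1.95, SE 0.55, adjusted p = 0.12), COL6A1 (1.07, SE 0.30, adjusted p = 0.12) and COL27A1 (-1.97, SE 0.55, adjusted p = 0.12). DESeq2 called 0 in each of the 3 classes, of the 14, 27 and 15 members to which it gave an adjusted p (progenitor-like, neuron-like, astrocyte-like). In astrocyte-like cells 1 member was called with graft site as a block, 1 at resolution 1.6 and 2 with no integration. These and other settings that called members are given at the end, beside the genes called, apart from fits without single libraries.

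The graft sites were compared over both stages to ask whether the host region mattered for these genes. No member was called between PFC and HIP: 0 of 41 tested passed the threshold and DESeq2 called 0. Of 17121 genes, 0.0876% were called (0.0701% higher, 0.0175% lower). The fit leaves 1 residual degree of freedom. On simulated data it found 57 of 100 4-fold changes and 1 of 100 2-fold changes, so a member not called may still differ between sites. Unadjusted, 4 members had a p under 0.05 in edgeR, and the share of all genes at that level was not computed. The 4 were COL9A3 (0.99, SE 0.31, adjusted p = 0.65), COL1A2, LAMB4 and COL21A1. Single libraries differed beyond counting error, with separate 95% intervals for 12 of 56 members between HIP_2MPT and PFC_2MPT and for 15 between HIP_4MPT and PFC_4MPT. Among them were LAMB1 at 2MPT (33.1 and 15.7 CPM) and COL4A5 at 4MPT (32.3 and 10.9 CPM). The share of all genes with separate intervals was not computed, so these counts say nothing particular about the members. With 1 library per site and stage such a gap cannot be told apart from library-to-library variation.

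**Figure D5:**
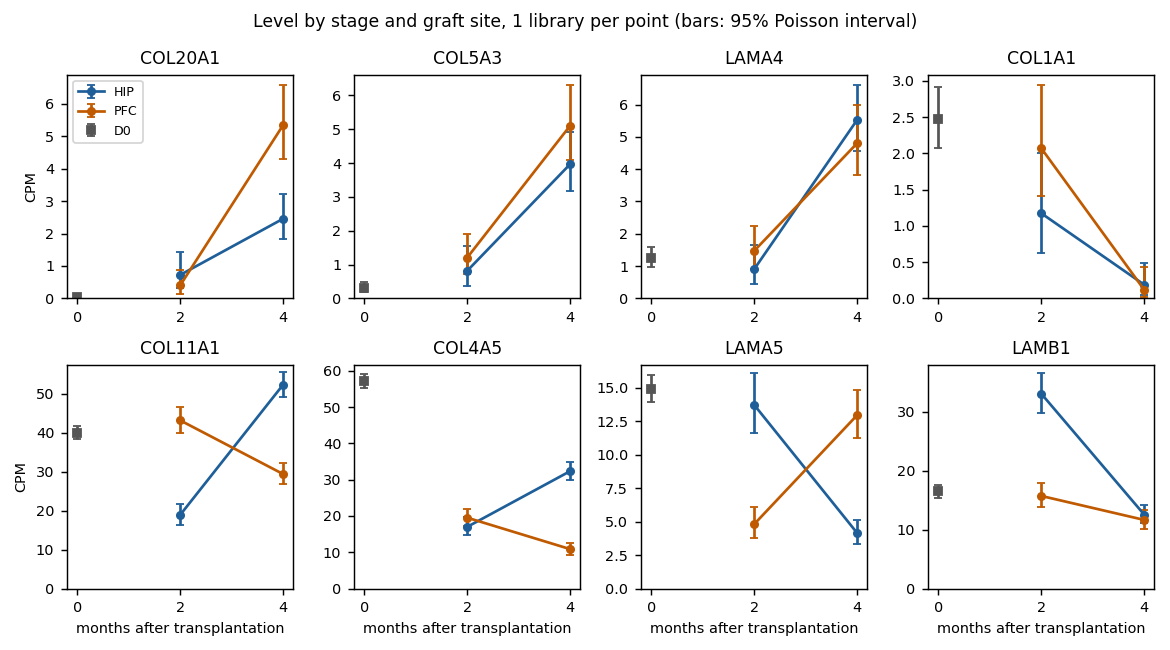
Level of 8 members in CPM by months after transplantation, with 1 point per library, bars for the 95% Poisson counting interval, lines joining the 2 libraries of a site (HIP or PFC), and D0 placed at 0. The top row shows the 4 members called between 2MPT and 4MPT; in the bottom row COL11A1, COL4A5 and LAMA5 move in opposite directions in HIP and PFC, and LAMB1 is highest in HIP_2MPT (33.1 CPM).

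Genes that make, hold or sense this matrix were counted from 3 fixed lists. The counts at 2MPT against D0 stand beside the 48.3% of all genes called, 27.2% higher and 21.1% lower. Of 25 collagen-processing genes tested, 2 were higher and 12 lower. SERPINH1, the collagen chaperone, was at 45.3 CPM in D0 and at 5.87, 5.55, 13.5 and 8.94 CPM in grafts (-3.36, SE 0.32, adjusted p = 2.6e-05), P4HA1, a subunit of the enzyme that hydroxylates proline in collagen, was at 181 CPM in D0 and at 23.1, 38.5, 69.2 and 45.6 CPM (-2.92, SE 0.34, adjusted p = 9e-05), and ADAMTS3, which removes the end of procollagen, was higher (3.83, SE 0.57, adjusted p = 0.00039). Of 14 partners of the basement membrane, 3 were higher and 7 lower. SPARC, a collagen-binding protein, went from 99.9 CPM to between 7.37 and 13.7 CPM (-3.96, SE 0.37, adjusted p = 2.3e-05), AGRN, a heparan sulphate proteoglycan that binds laminin, was lower (-2.17, SE 0.45, adjusted p = 0.003), and TNC, an extracellular glycoprotein of glia, went from 4.19 CPM to between 52.5 and 125 CPM (3.68, SE 0.40, adjusted p = 6e-05). Of 20 receptors for collagen and laminin, 1 was higher and 7 lower, among them SDC2 (-3.62, SE 0.42, adjusted p = 8.8e-05), BCAM, a laminin receptor (-2.77, SE 0.39, adjusted p = 0.00026), and DDR1, a collagen-activated kinase (-1.90, SE 0.26, adjusted p = 0.00026), while the integrin chain ITGAV was higher (0.94, SE 0.28, adjusted p = 0.019). The medians of the 3 lists were -0.86, -1.36 and -0.52, beside 0.07 over all genes. Between 4MPT and 2MPT, 1, 1 and 0 genes of the lists were called, and between the sites 0.

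Host RNA was checked as a source of member counts, since mouse transcripts can align to a human reference. In the human cells of the 4 grafts, the member UMIs counted against the human-mouse dual reference were 99.02% to 99.6% of those counted against the human reference. COL6A6 was the member that differed most between the references, and LAMB4 kept 10 of 16 UMIs in HIP_2MPT and COL24A1 7 of 14 in PFC_2MPT. In host barcodes, the human reference gave 105, 50, 648 and 210 member UMIs in HIP_2MPT, PFC_2MPT, HIP_4MPT and PFC_4MPT. The human genes of the dual reference gave 78, 24, 106 and 80, and the mouse counterparts of the members about 256, 367, 5475 and 1196. The mouse totals are slightly low, since COL21A1 and LAMB4, with no mouse gene of that name, were entered as -1 each. The human reference held 737, 422, 1102 and 927 of the 916, 772, 2071 and 1202 host barcodes, so the 2 references do not cover the same barcodes.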

How the data were processed

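Single-cell suspensions of 5 samples were sequenced with 10x 3' v3 chemistry. The deposited files hold UMI counts per gene and cell, made by the authors with Cell Ranger (version 3.1.0 for D0 and 5.0.0 for the grafts, per the file headers) against a human reference and, for the grafts, also a human-mouse reference; the submitters' processing notes name GRCh38 and hg38. Whether introns were counted is not given in the sources used here.

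Kept cells had more than 500 UMIs and 500 genes, a complexity (log10 of genes divided by log10 of UMIs) above 0.8, less than 0.15 of UMIs from mitochondria and, in grafts, more than 0.8 from human genes. Host barcodes had less than 0.2 from human genes and more than 500 UMIs from mouse genes. No doublet caller was run. Cells were normalised with sctransform 0.4.2 and clustered in Seurat 5.3.0 (R 4.3.3; 2500 variable genes without the collagen and laminin genes, 40 principal components, resolution 0.8, 20 clusters), and clusters were named from marker lists. Counts were summed per library, over all cells or a class, and tested with edgeR 4.0.16 (TMM scaling, filter on low counts, quasi-likelihood test, Benjamini-Hochberg adjustment over all genes tested, threshold 0.05). Levels are CPM, with exact Poisson intervals for counts and exact Clopper-Pearson intervals for shares (95%). These cover counting error only, and a count of 0 allows up to 3 counts. For shares of cells, each cell was first thinned to 1000 UMIs. The p-values of the stage comparisons measure the spread between libraries of 2 sites, and each library pools animals. For PFC against HIP, stage was in the fit, and the p-values measure how far the site difference varied between the 2 stages. Tests were first tried on simulated data with 100 4-fold and 100 2-fold changes. In all human cells they found 25 and 1 for 2MPT against D0, 75 and 5 for 4MPT against 2MPT, and 57 and 1 for PFC against HIP. For 4MPT against 2MPT they found 70 and 3 in neuron-like cells and 25 and 1 in astrocyte-like cells. Most simulated 2-fold changes were thus missed. The simulation gave every gene the same fixed spread, which was not fitted to these data. Its shares need not hold for the tests on these data. Named were the members called, those at 10 CPM or more in a library and those at 50 CPM or more in a class, and for the pathway lists up to 4 examples each. The values of 1 member are not reported here. The members, gene lists and tests were chosen with earlier results of these data known.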

Additional observations from a re-analysis of the deposited data

Results flagged for a closer look

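For 3 members the change from 2MPT to 4MPT went in opposite directions at the 2 sites, with separate counting intervals at both. The log2 ratio of CPM (with 0.5 CPM added) was 1.44 in HIP and -0.55 in PFC for COL11A1, 0.91 and -0.82 for COL4A5, and -1.61 and 1.34 for LAMA5. Each site has 1 library per stage, and the difference was not tested. How many of all genes moved in opposite directions in this way was not counted. In host barcodes of HIP_4MPT, the human reference gave 237 UMIs of COL8A1 and 170 of LAMA1, where the human genes of the dual reference gave 0 and 1. The human reference held 1102 of the 2071 host barcodes.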

How the results depend on the processing

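No paired analysis was possible because each group is 1 library, with no replicate numbers that join libraries of different groups. Graft site, which is a condition, was used as a block between 4MPT and 2MPT. Then 5 of 41 members were called in all human cells, where 738 of 17121 genes were called. In progenitor-like cells 0 of 15 members were called (88 of 11321 genes) and in neuron-like cells 0 of 29 (319 of 15879 genes). Leaving out each graft library in turn changed the number of members called in each stage comparison, and the number of all genes called moved as well. Such a fit leaves 1 library at a stage, so these counts are not given. It was 9 to 12 and 0 to 3 in progenitor-like cells (2MPT against D0, 4MPT against 2MPT), 21 to 25 and 0 to 2 in neuron-like cells, and 0 to 4 in astrocyte-like cells (4MPT against 2MPT). With no filter on low counts, 4MPT against 2MPT gave 13 of 56 members in all human cells (1347 of 27512 genes). It gave 2 of 55 in progenitor-like (279 of 23110 genes), 4 of 56 in neuron-like (930 of 26529) and 4 of 48 in astrocyte-like cells (519 of 20737). DESeq2 gave 7 of 25 members for 2MPT against D0 in progenitor-like cells (2909 of 13090 genes) and 14 of 38 in neuron-like cells (6196 of 17586). Radial glia-like cells alone gave 4 of 10 (1976 of 7287 genes). Keeping the members among the variable genes gave 1 of 24 members for 4MPT against 2MPT in progenitor-like cells (100 of 13062 genes). In astrocyte-like cells that comparison gave 1 of 15 with graft site as a block (255 of 10759 genes). It gave 1 of 19 at resolution 1.6 (302 of 11649) and 2 of 19 with no integration (328 of 12081). Without choroid plexus-like cells, COL21A1 at 4MPT against D0 was 0.46 in place of -2.0. The cause was not tested. Leaving out choroid plexus-like or Cajal-Retzius neuron-like cells and taking radial glia-like cells alone were chosen after seeing the data. The PFC and HIP comparison was not run without single libraries, since no residual degrees of freedom are left. The mean share of cells with a member's UMI was 0.972%, 0.529%, 0.558%, 0.588% and 0.555% after thinning in D0, HIP_2MPT, PFC_2MPT, HIP_4MPT and PFC_4MPT, and 6.96%, 0.729%, 1.31%, 1.66% and 1.07% without it. D0 has no replicate and the grafts are shallower, so members under about 0.3 CPM in a graft are near the limit of detection.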
